A study of Mus musculus with 8 samples.

Results

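Endothelial identity genes are the genes that mark the cells lining blood and lymph vessels and that set those cells apart as arterial, venous or lymphatic. The set described here holds 38 such genes of the 22180 genes measured in mouse heart. It was given as a list of names without classes. Here the names were sorted into 21 genes of endothelium in general, 7 arterial and Notch genes, 2 venous genes and 4 lymphatic genes. The 2 MEOX homeobox genes and the 2 angiopoietin ligands were kept as classes of their own. The genes were chosen by what they are known for, but with values of the same digoxin and vehicle arrays known. The digoxin minus vehicle differences below are therefore a description of these genes and no test of them.

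The hearts came from male wild-type mice, aged 8 to 10 weeks, of the strain given as C57BL6JRj in the sample labels and as C57BL6/J under growth conditions. Digoxin, a cardiac glycoside and blocker of the cell's sodium pump, was given into the peritoneum at 1 mg/kg at ZT5, where ZT0 is lights-on, and the hearts were taken at ZT9 (5 arrays). Vehicle mice received the solvent alone, made of ethanol, propylene glycol, citric acid and sodium phosphate, at the same times (3 arrays). A total of 4 vehicle samples is named in the design text, but only 3 were given here, and all 3 were used. The sex, age, strain, feeding and timing were shared by both groups. The labels number the samples separately and do not say that each is 1 animal, so p-values measure only the spread between these samples.

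Endothelial cells share junction proteins such as VE-cadherin and claudin-5, receptors of the TIE family, and transcription factors of the ETS family. Arterial cells add the Notch pathway, in which DLL4 and JAG1 are ligands, NOTCH1 and NOTCH4 are receptors, HEY1 and HEY2 are target repressors, and ephrin-B2 marks the arterial side. Venous cells carry the ephrin-B2 receptor EPHB4 and the nuclear receptor COUP-TFII (Nr2f2), which holds Notch signalling down, while PROX1 sets lymphatic identity. In the heart most endothelial cells are those of the capillaries, which pass fatty acids to the muscle, and MEOX2 is known as a regulator of that transport.

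Every value is a log2 expression value that the deposited table gives centred for each probe set. A value of 0 is therefore the unstated centre of that probe set and not absence. Only differences between arrays can be read. No level can be compared between genes, and the heart label could not be checked by level. A difference of 1 is a fold of 2. Genes were called changed when their adjusted p in a limma fit over all 22180 genes lay below 0.05. Whole heart RNA was measured, so fewer cells of a type and less RNA per cell cannot be told apart. The number of arrays limits the precision. In the labels all vehicle arrays carry lower serial numbers than all digoxin arrays. If these numbers follow the order in which the arrays were run, treatment cannot be told apart from that order.

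Vehicle replicate 3 stood apart in its spread, with an interquartile range over probe sets of 0.216 against 0.0792 to 0.115 on the other 7 arrays. It was the lowest of the 3 vehicle arrays in 27 of the 38 genes, vehicle replicate 1 was the lowest in 11, and vehicle replicate 2 in 0. Markers of atrial muscle, 8 genes such as Myl7 and Sln, varied most between arrays, with a mean from -0.42 to 1.67 on digoxin arrays and from 0.23 to 2.25 on vehicle arrays, and 0 of the 8 were called. Marker lists of ventricular muscle, fibroblasts, pericytes with smooth muscle, macrophages, and mesothelium had means that overlapped between the groups.

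Of the 38 genes, 1 rose (Esam), 7 fell (Ecscr, Cd200, Myct1, Efnb2, Nr2f2, Meox1 and Meox2) and 30 did not pass the fit. Over all 22180 genes, 302 passed, which is 1.36%; 0.947% rose and 0.415% fell. These are the values the genes were chosen with in view, so nothing is read from the comparison of the shares. The adjusted p that limma returned was 0.0052 for Myct1, 0.0122 for Ecscr, 0.0203 for Meox1 and 0.0212 for Meox2. Efnb2, Cd200, Nr2f2 and Esam lay just inside the threshold, at 0.0450 to 0.0486, and the lymphatic and macrophage gene Lyve1 lay just outside, at 0.058. The 2 groups of arrays did not overlap in 16 of the 38 genes, of which 4 were higher and 12 lower with digoxin. Over all genes the groups did not overlap in 8.16%, higher in 4.4% and lower in 3.76%. The mean was lower with digoxin in 28 of the 38 genes, or 73.7%, against 55.6% of all genes. Their median difference was -0.15, and the median over all genes was -0.01. The median size of the difference, whatever its sign, was 0.213 in the 38 genes and 0.0662 over all genes.

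**Figure D1:**
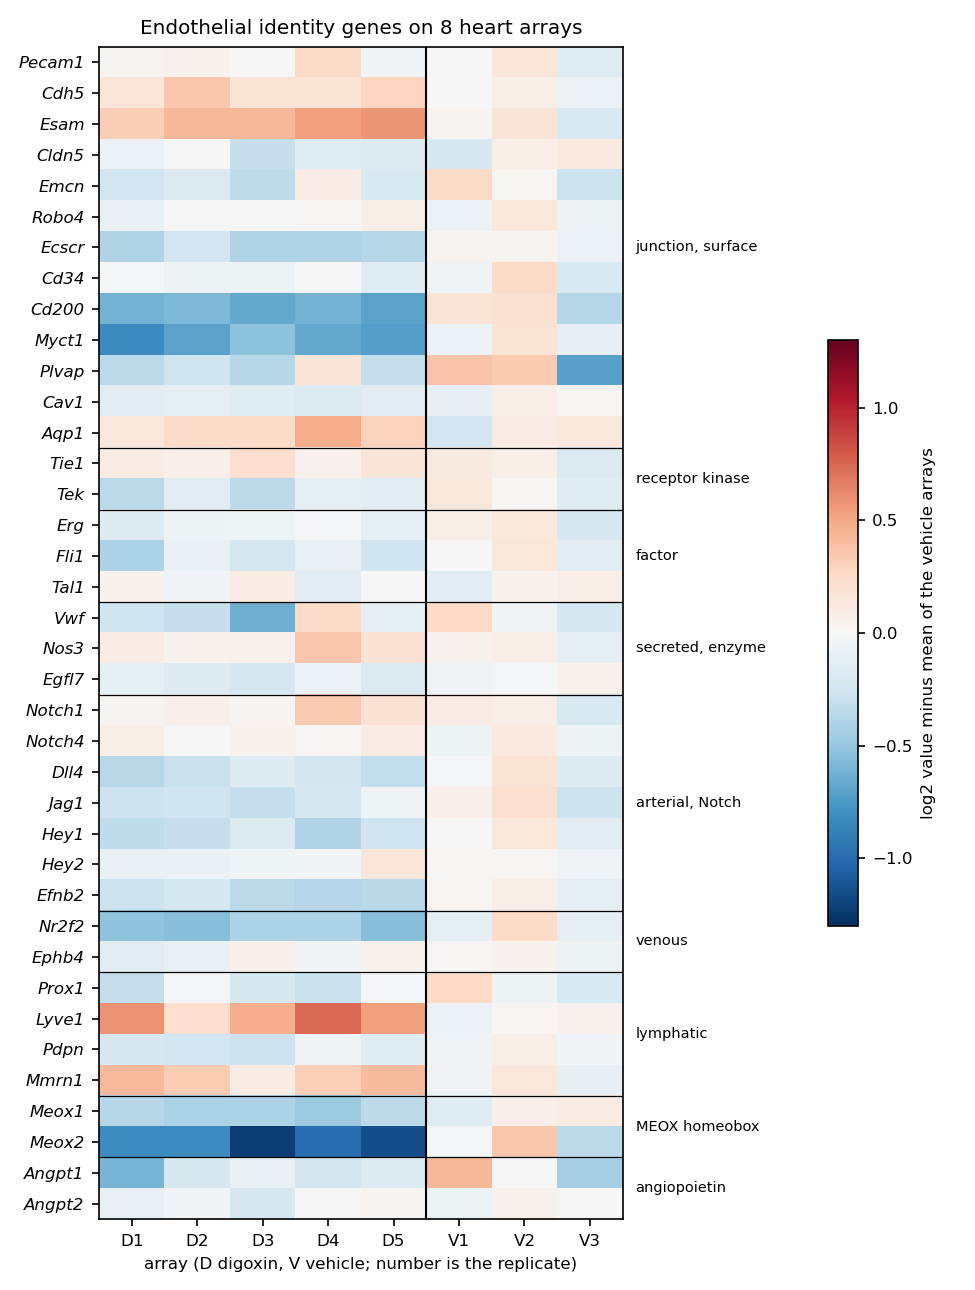
The 38 endothelial genes (rows, grouped by role) on the 5 digoxin and 3 vehicle arrays (columns). Colour gives the log2 value minus the mean of the vehicle arrays for that gene. Meox2 and Myct1 are low on all 5 digoxin arrays, Lyve1 and Esam are high there, and vehicle replicate 3 lies closer to the digoxin arrays than the other vehicle arrays in genes such as Cd200 and Efnb2.

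Promoters of the genes that passed the fit are shown here because these genes moved in the same contrast. RefSeq windows on GRCm38.p6 were found for 25 of the 38 genes and for 5 of the 8 that passed. Each window is the 250 bases before the start site, 5′ to 3′ on the gene's strand. Capitals mark GGAAG, a form of the ETS core, or its reverse complement CTTCC. The windows are chr10:5593478-5593727 on the + strand for Myct1, chr16:45409054-45409303 on the - strand for Cd200, chr8:8661243-8661492 on the - strand for Efnb2, chr7:70366747-70366996 on the - strand for Nr2f2, and chr12:37108290-37108539 on the + strand for Meox2.
Myct1: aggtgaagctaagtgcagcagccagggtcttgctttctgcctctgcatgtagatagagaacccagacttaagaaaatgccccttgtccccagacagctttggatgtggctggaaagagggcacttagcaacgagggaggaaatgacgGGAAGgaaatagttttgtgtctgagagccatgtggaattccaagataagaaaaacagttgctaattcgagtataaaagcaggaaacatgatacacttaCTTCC
Cd200: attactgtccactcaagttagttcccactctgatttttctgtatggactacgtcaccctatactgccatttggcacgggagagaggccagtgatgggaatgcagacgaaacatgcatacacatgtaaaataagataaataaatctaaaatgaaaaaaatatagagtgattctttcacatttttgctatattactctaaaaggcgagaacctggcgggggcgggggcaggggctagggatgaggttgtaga
Efnb2: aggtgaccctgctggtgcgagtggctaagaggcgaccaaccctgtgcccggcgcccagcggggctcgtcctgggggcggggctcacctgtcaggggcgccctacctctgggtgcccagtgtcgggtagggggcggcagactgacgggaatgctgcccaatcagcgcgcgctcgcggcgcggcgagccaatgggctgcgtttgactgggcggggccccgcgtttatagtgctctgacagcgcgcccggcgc
Nr2f2: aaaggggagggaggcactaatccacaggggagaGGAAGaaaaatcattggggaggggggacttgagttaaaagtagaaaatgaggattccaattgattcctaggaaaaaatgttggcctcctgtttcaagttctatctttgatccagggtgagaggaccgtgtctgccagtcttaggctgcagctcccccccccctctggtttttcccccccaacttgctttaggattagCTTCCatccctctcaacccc
Meox2: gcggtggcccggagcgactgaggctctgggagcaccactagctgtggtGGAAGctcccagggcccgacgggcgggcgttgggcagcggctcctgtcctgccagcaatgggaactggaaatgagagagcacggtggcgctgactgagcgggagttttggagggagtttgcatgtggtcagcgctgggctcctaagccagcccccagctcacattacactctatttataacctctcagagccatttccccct

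GGAAG or CTTCC was found 2 times in the Myct1 window, the nearest beginning 5 bases before the start site. It was found 2 times in the Nr2f2 window and 1 time in that of Meox2. The windows of Cd200 and Efnb2 held 0 matches to these letters. The letters are a form of the core that ERG, FLI1 and the rest of the ETS family bind, and other forms were not counted. Since 64.1% of all 32851 windows of this length, and 19 of the 32 windows of the set (59.4%), hold these letters on either strand, a match is common. TGGGAA, the letters bound by the Notch partner RBPJ, was found 2 times in the window of Cd200 and 1 time in that of Meox2, and in 21.6% of all windows and 34.4% of the windows of the set. AGATAA, which zinc-finger factors of blood and endothelium bind, was found 1 time each for Cd200 and Myct1 and in 9.99% of all windows. TATAAA or its reverse complement TTTATA was found 1 time each for Myct1, Efnb2 and Meox2, 33, 30 and 29 bases before the start site. On the gene's strand the letters read TATAAA for Myct1 and TTTATA for Efnb2 and Meox2. They lay in 12.4% of all windows on either strand, and the other letters were counted that way too. The FOXO letters TGTTTAC, the SOX letters AACAAT and the glucocorticoid receptor letters AGAACA were found in 0 of these 5 windows and in 3.17%, 9.42% and 16.1% of all windows. The Efnb2 window was the richest of the 5 in G and C, at 72.0%. These matches are letters in a window, and binding was not measured.

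Both MEOX homeobox genes fell, and Meox2 moved furthest of the 38 genes. Meox2 stood at -0.63, -0.63, -1.03, -0.80 and -0.97 on the digoxin arrays and at 0.18, 0.55 and -0.16 on the vehicle arrays. All 5 digoxin arrays lay below the lowest vehicle array. Meox2 fell by 1.00 (SE 0.16, 95% interval -1.36 to -0.64), a fold of 2.00. Meox1, its paralogue, known from somite development and from fibroblasts and smooth muscle as well as endothelium, stood at -0.19, -0.23, -0.22, -0.29 and -0.16 with digoxin and at 0.03, 0.25 and 0.28 with vehicle. Its digoxin arrays lay within a narrow band below all 3 vehicle arrays. Meox1 fell by 0.40 (SE 0.06, 95% interval -0.55 to -0.26), a fold of 1.32. The mean of the 2 genes was -0.51 ± 0.09 (SD, n = 5) with digoxin and 0.19 ± 0.19 (SD, n = 3) with vehicle. The difference between Meox2 and Meox1 on each array overlapped between the groups, at -0.60 ± 0.20 (SD, n = 5) and 0.00 ± 0.39 (SD, n = 3).

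The MEOX calls depended on which arrays were kept. Meox2 did not pass without digoxin replicate 3 (-0.95), digoxin replicate 5 (-0.96), vehicle replicate 1 (-1.01) or vehicle replicate 2 (-0.82), and Meox1 did not pass without digoxin replicate 2 (-0.40), digoxin replicate 3 (-0.40) or vehicle replicate 2 (-0.37). Fibroblast markers, which bear on Meox1, had a mean of -0.10 to 0.11 on digoxin arrays and of -0.05 to 0.23 on vehicle arrays, with 0 of 9 called. With their mean as a covariate Meox1 fell by 0.44 and Meox2 by 0.80, and both passed. With the atrial mean as a covariate Meox1 passed (-0.47) and Meox2 did not (-0.93), and with a variance model with a trend and robust estimation neither passed.

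**Figure D2:**
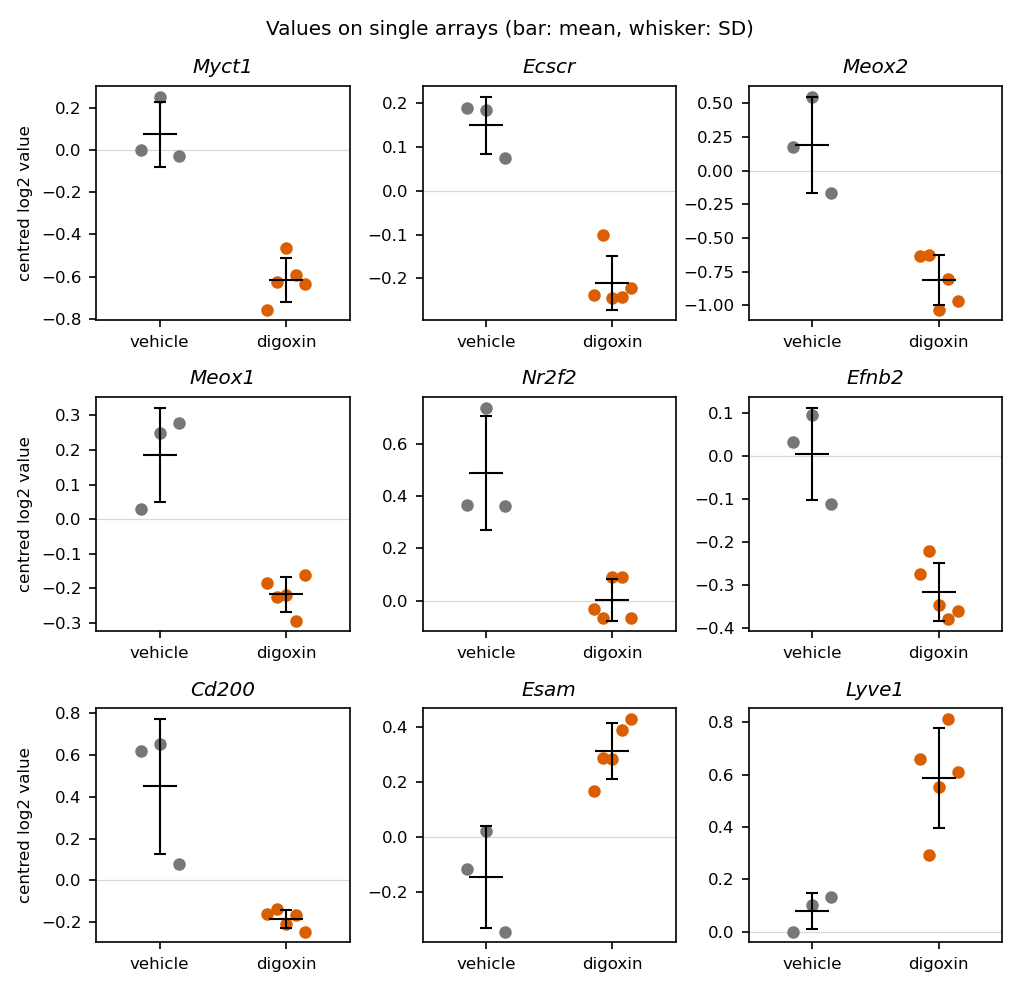
Centred log2 values on each array for the 8 genes that passed the all-gene fit and for Lyve1, which did not pass. Points are arrays and bars the group mean ± SD (5 digoxin and 3 vehicle arrays). The groups do not overlap in any of the 8, nor in Lyve1. The vehicle SD is larger than the digoxin SD in each of the 8, with the largest vehicle SD in Meox2 and Cd200, and smaller in Lyve1.

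Among the 13 genes of endothelial junctions and the cell surface, 3 fell and 1 rose, so they did not move as a block. Myct1 encodes a membrane protein enriched in endothelial cells. It stood at -0.76, -0.62, -0.46, -0.59 and -0.64 with digoxin and at 0.00, 0.25 and -0.03 with vehicle. The lowest vehicle array was well above the highest digoxin array. Myct1 fell by 0.69 (SE 0.08, 95% interval -0.88 to -0.50), a fold of 1.61. It passed whichever array was left out, with differences from -0.74 to -0.60.

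Ecscr, an endothelial surface protein named for its part in chemotaxis, stood at -0.24, -0.10, -0.25, -0.24 and -0.22 with digoxin and at 0.19, 0.19 and 0.07 with vehicle. The digoxin arrays were all negative and the vehicle arrays all positive, and digoxin replicate 2 was the highest of its group. Ecscr fell by 0.36 (SE 0.05, 95% interval -0.48 to -0.24), a fold of 1.28. It passed without each array in turn other than vehicle replicate 2, without which the difference was -0.34. Under the trend and robust variance model Myct1 was the only gene of the 38 that passed, so the other 7 calls, Ecscr among them, were lost. Cd200, a surface glycoprotein that signals to a receptor on myeloid cells, stood at -0.16, -0.14, -0.21, -0.17 and -0.25 with digoxin and at 0.62, 0.65 and 0.08 with vehicle. Vehicle replicates 1 and 2 were high and vehicle replicate 3 lay much closer to the digoxin arrays. Cd200 fell by 0.64 (SE 0.12, 95% interval -0.91 to -0.36), a fold of 1.55. Its difference was -0.82 without vehicle replicate 3, where it passed, and -0.65 to -0.53 without any other array, where it did not.

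Esam, the endothelial cell-selective adhesion molecule of tight junctions, was the gene that rose. It stood at 0.17, 0.29, 0.29, 0.39 and 0.43 with digoxin and at -0.11, 0.02 and -0.34 with vehicle. Its groups did not overlap, and vehicle replicate 3 was the lowest array. Esam rose by 0.46 (SE 0.09, 95% interval 0.26 to 0.66), a fold of 1.37. The difference was 0.54 without vehicle replicate 2, where it passed, and 0.36 to 0.49 without any other array, where it did not. The difference between Esam and Ecscr, a pair chosen after their values were seen, was 0.52 ± 0.12 (SD, n = 5) with digoxin and -0.30 ± 0.13 (SD, n = 3) with vehicle. Its arrays could not overlap, since Esam was higher and Ecscr lower on every digoxin array than on any vehicle array.

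Of the other 9 junction and surface genes, which did not pass, 3 had groups that did not overlap. Cdh5, the adherens junction protein VE-cadherin, stood at -0.01, 0.17, 0.00, 0.00 and 0.11 with digoxin and at -0.17, -0.10 and -0.25 with vehicle, a difference of 0.23 (SE 0.06). Aqp1, the water channel of capillary endothelium, stood at 0.04, 0.14, 0.13, 0.37 and 0.19 with digoxin and at -0.36, 0.00 and 0.03 with vehicle, a difference of 0.29 (SE 0.10). Cav1, the coat protein of caveolae, stood at -0.02, 0.00, -0.04, -0.07 and -0.03 with digoxin and at 0.02, 0.21 and 0.13 with vehicle, a difference of -0.15 (SE 0.05). Every digoxin array was thus higher in Cdh5 and Aqp1 and lower in Cav1 than every vehicle array, though the nearest arrays of the groups almost met in Aqp1 and Cav1.

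The remaining 6 of these genes had overlapping groups. Pecam1, the adhesion molecule CD31, differed by 0.06 (SE 0.09) and Robo4, a guidance receptor, by 0.00 (SE 0.06). Cd34, a sialomucin also found on blood progenitors and some stromal cells, differed by -0.06 (SE 0.09). Cldn5, the tight junction protein claudin-5, differed by -0.14 (SE 0.09), and Emcn, the capillary and venous sialomucin endomucin, by -0.17 (SE 0.13). Plvap, the diaphragm protein of fenestrated and venous endothelium, had the widest interval of the set, -0.78 to 0.33 around a difference of -0.22. Its vehicle arrays stood at 0.72, 0.70 and -0.36, and digoxin replicate 4 at 0.52 was well above the other digoxin arrays at -0.02 to 0.09. Without digoxin replicate 4 and vehicle replicate 3 together Plvap was lower by 0.68 with digoxin and passed, whereas with the mean of the atrial markers as a covariate its difference was 0.09. The sign also turned for Pecam1, to -0.02 without vehicle replicate 3, and for Cd34 and Robo4, to 0.06 and 0.07 without vehicle replicate 2.

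Of the 8 endothelial receptor kinases, transcription factors and secreted or enzymatic proteins, 0 passed the limma fit. Tie1, the orphan TIE receptor, differed by 0.12 (SE 0.08) and Tek, the angiopoietin receptor TIE2, by -0.22 (SE 0.09), and each overlapped between the groups. Their difference on each array did not overlap: Tek minus Tie1 was -0.37, -0.12, -0.47, -0.08 and -0.22 with digoxin and 0.11, 0.03 and 0.12 with vehicle. This pair was chosen after its values were seen. Among the transcription factors, the ETS factors Erg and Fli1 differed by -0.08 (SE 0.08) and -0.21 (SE 0.09), and Tal1, a helix-loop-helix factor of blood and endothelial precursors, by -0.01 (SE 0.07), with a sign that turned under 7 of 18 alternatives. Egfl7, a secreted protein of the vessel wall, stood at 0.00, -0.04, -0.08, 0.05 and -0.06 with digoxin and at 0.09, 0.11 and 0.19 with vehicle. Its arrays did not overlap, with a difference of -0.16 (SE 0.05). Vwf, the platelet-binding protein of endothelial granules, differed by -0.21 (SE 0.18) and Nos3, the endothelial nitric oxide synthase, by 0.15 (SE 0.08). The ligands of TEK did not pass either: Angpt1, an activating ligand made by cells around vessels, differed by -0.27 (SE 0.18), and Angpt2, the ligand stored in endothelium, by -0.06 (SE 0.06). Angpt1 alone was read by 2 probe sets, which differed by -0.32 and -0.22.

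**Figure D3:**
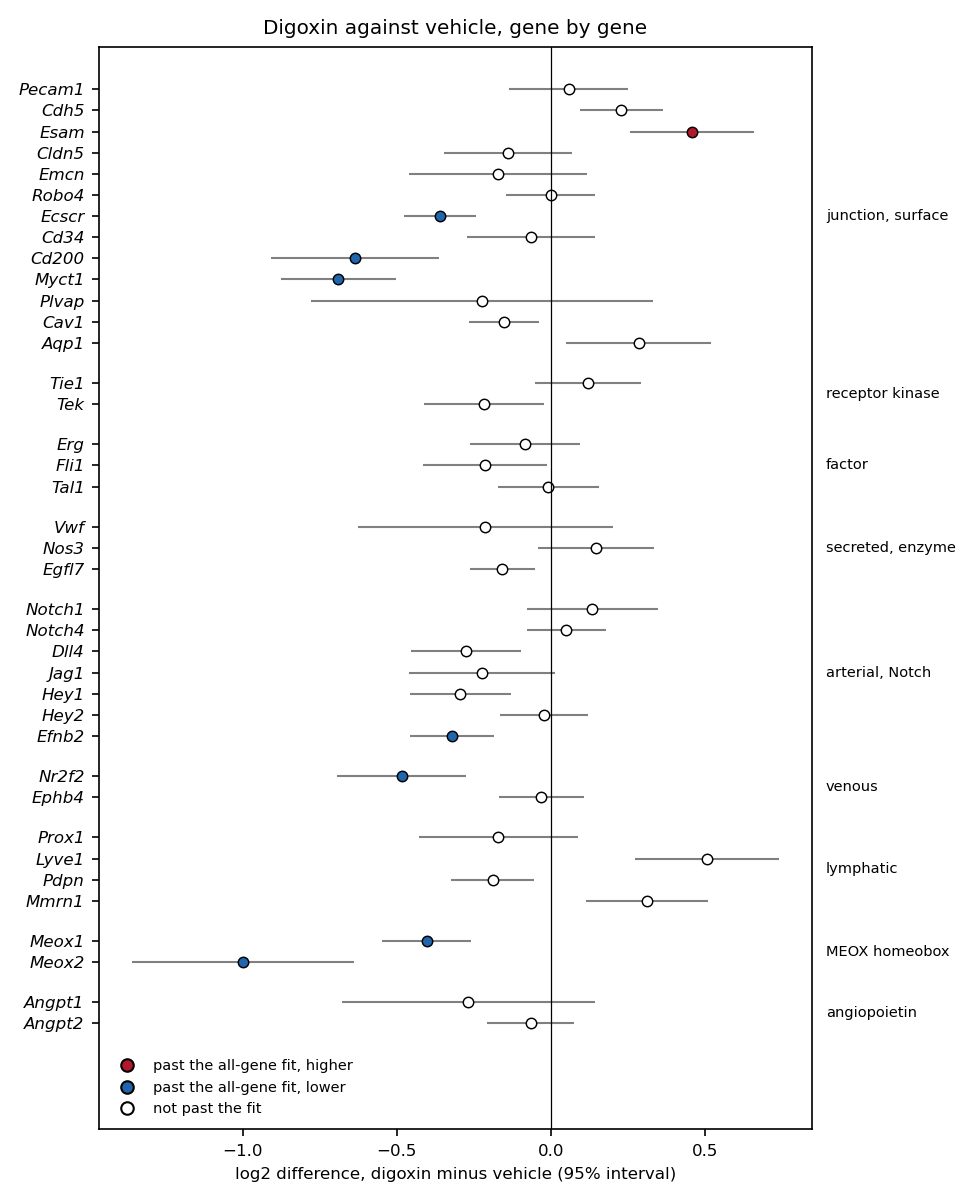
Digoxin minus vehicle difference in log2 expression for each of the 38 genes, with 95% intervals from the limma fit (5 against 3 arrays) and the genes grouped by role. Coloured points mark the 8 genes that passed the all-gene fit; Meox2, which fell by 1.00, is the lowest, and Lyve1 at 0.51 and Esam at 0.46 are the highest.

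Of the 7 arterial and Notch genes 1 fell, the arterial ligand ephrin-B2. Efnb2 stood at -0.27, -0.22, -0.35, -0.38 and -0.36 with digoxin and at 0.03, 0.10 and -0.11 with vehicle. No digoxin array reached the vehicle range, and vehicle replicate 3 was nearest to the digoxin arrays. Efnb2 fell by 0.32 (SE 0.06, 95% interval -0.46 to -0.18), a fold of 1.25. It passed without vehicle replicate 3 (-0.38) and did not pass without any other array (-0.34 to -0.28). Ephb4, its venous receptor, differed by -0.03 (SE 0.06) with overlapping groups. Efnb2 minus Ephb4, taken on each array for this ligand and receptor after their values were seen, was -0.31 ± 0.15 (SD, n = 5) with digoxin and -0.02 ± 0.05 (SD, n = 3) with vehicle, and the arrays did not overlap.

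In the Notch pathway the ligand Dll4 stood at -0.19, -0.12, 0.00, -0.07 and -0.15 with digoxin and at 0.16, 0.35 and 0.00 with vehicle, a difference of -0.28 (SE 0.08). The target repressor Hey1 stood at -0.19, -0.15, -0.04, -0.25 and -0.12 with digoxin and at 0.15, 0.29 and 0.00 with vehicle, a difference of -0.29 (SE 0.07). In both, all digoxin arrays lay below all vehicle arrays, in Dll4 barely so between digoxin replicate 3 and vehicle replicate 3, and the fit was not passed. Without vehicle replicate 3 Hey1 was lower by 0.37 and passed. The other ligand Jag1 differed by -0.22 (SE 0.10), with overlapping groups. The receptors Notch1 and Notch4 differed by 0.13 (SE 0.09) and 0.05 (SE 0.06), with overlapping groups. The sign turned for each under 1 alternative, to -0.01 for Notch1 without digoxin replicate 4 and vehicle replicate 3 and to -0.01 for Notch4 with array weights. Hey2, a repressor that heart muscle expresses too, differed by -0.02 (SE 0.06). As a whole the 7 genes had a mean of -0.04 ± 0.04 (SD, n = 5) with digoxin and 0.09 ± 0.13 (SD, n = 3) with vehicle, which overlapped.

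Nr2f2, the venous and also atrial nuclear receptor COUP-TFII, fell, while the other venous gene, Ephb4, did not pass. Nr2f2 stood at -0.03, -0.07, 0.09, 0.09 and -0.07 with digoxin and at 0.36, 0.74 and 0.36 with vehicle. Every vehicle array lay above every digoxin array, with vehicle replicate 2 the highest. Nr2f2 fell by 0.48 (SE 0.09, 95% interval -0.69 to -0.27), a fold of 1.40. It passed without vehicle replicate 3 (-0.55) and did not pass without any other array (-0.55 to -0.36). The atrial marker mean on the digoxin arrays was 0.36, -0.29, 0.96, 1.67 and -0.42, and on the vehicle arrays 2.25, 1.69 and 0.23. With the atrial mean as a covariate Nr2f2 was lower by 0.42 and did not pass, and Myct1, Ecscr and Meox1 were the 3 genes of the set that did. The part of atrial muscle in the Nr2f2 difference was not tested.

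The 4 lymphatic genes did not move together, and 0 passed the limma fit. Lyve1, the hyaluronan receptor of lymphatic endothelium, also made by resident macrophages, stood at 0.66, 0.29, 0.55, 0.81 and 0.61 with digoxin and at 0.00, 0.10 and 0.13 with vehicle. The groups did not overlap, with digoxin replicate 2 nearest to vehicle. The difference was 0.51 (SE 0.10, 95% interval 0.27 to 0.74). Without digoxin replicate 2 it was 0.58 and passed, as it did at 0.50 after quantile normalisation between arrays. Among 9 macrophage markers 1 fell, Cx3cr1 by 0.26. Cd163, a scavenger receptor of resident macrophages, differed by 0.51 (SE 0.13) and did not pass, though its groups did not overlap. Of the 9 markers, 3 were higher and 6 lower with digoxin. The mean of the 9 was -0.06 to 0.20 with digoxin and -0.17 to 0.17 with vehicle. The part of macrophages in the Lyve1 value was not tested.

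Mmrn1, a secreted multimerin of lymphatic endothelium and platelets, differed by 0.31 (SE 0.09), with digoxin arrays at -0.05 to 0.28 and vehicle arrays at -0.25 to 0.00. Pdpn, the mucin podoplanin, which mesothelium makes too, stood at -0.01, -0.06, -0.08, 0.13 and 0.04 with digoxin and at 0.15, 0.27 and 0.15 with vehicle, a difference of -0.19 (SE 0.06). Its groups did not overlap, and the mesothelial marker mean was -0.09 to 0.48 with digoxin and 0.14 to 0.28 with vehicle. Prox1, the lymphatic homeobox factor, which heart muscle expresses too, differed by -0.17 (SE 0.11) with overlapping groups. Lyve1 and Mmrn1 were thus the higher genes of the 4 and Prox1 and Pdpn the lower ones.

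Set side by side, the class means over genes differed by -0.10 in the 21 genes of endothelium in general (1 rose, 3 fell), -0.14 in the arterial and Notch genes (1 of 7 fell), -0.26 in the venous genes (1 of 2 fell), 0.12 in the lymphatic genes (0 of 4), -0.70 in the MEOX genes (2 of 2 fell) and -0.17 in the angiopoietin ligands (0 of 2). The arrays did not overlap for the venous and MEOX means and overlapped for the other 4 classes. The separation of the venous mean rests on Nr2f2, since Ephb4 overlapped. Emcn and Plvap, named above as venous too, were counted under general endothelium, and their groups overlapped. The MEOX mean could not overlap, since both of its genes were lower on every digoxin array than on any vehicle array. The general endothelial mean was -0.04 ± 0.06 (SD, n = 5) with digoxin and 0.05 ± 0.13 (SD, n = 3) with vehicle. Single arrays moved these differences. In general endothelium the difference was -0.04 without vehicle replicate 2 and -0.16 without vehicle replicate 3. Leaving out digoxin replicate 4 with vehicle replicate 3 gave -0.19. In the arterial and Notch genes it was -0.08 without vehicle replicate 2 and -0.21 with vehicle replicate 3 left out. In the angiopoietin ligands it was -0.07 without vehicle replicate 1 and -0.27 without vehicle replicate 3. Differences between the classes were not tested.

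**Figure D4:**
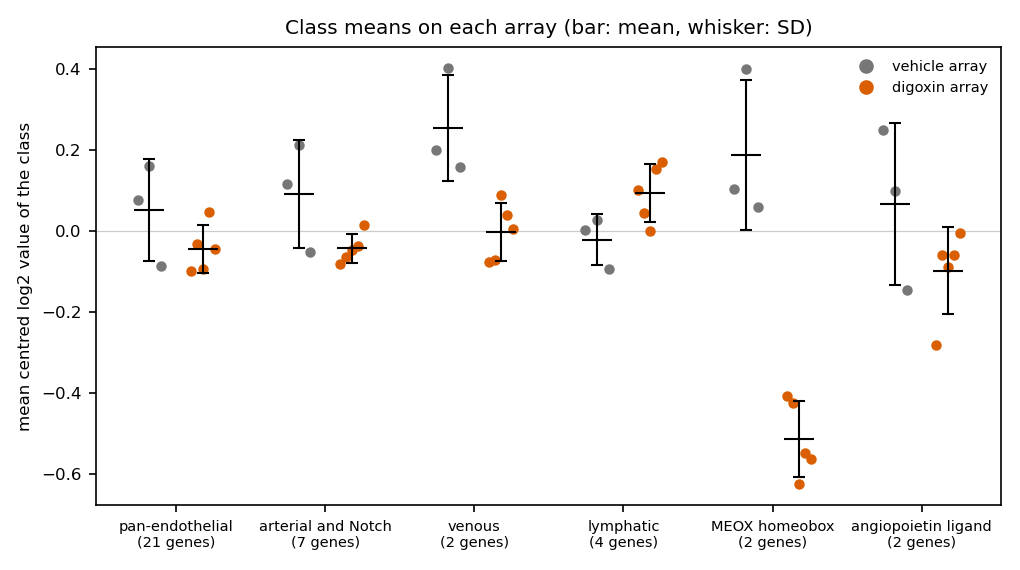
Mean centred log2 value over the genes of each class on each array, with points for arrays and bars for the group mean ± SD (5 digoxin and 3 vehicle arrays). The MEOX and venous means are lower on all 5 digoxin arrays than on any vehicle array, and the other 4 classes overlap. The MEOX mean could not overlap, since neither of its genes did, and the venous separation rests on Nr2f2.

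A wider panel of 70 endothelial genes, drawn up with the earlier results known, gives the surroundings of the set, and 67 of them were measured. Of these 4 rose and 6 fell, or 14.9%, against 1.36% of all genes. Since the panel was drawn up with results known, nothing is read from these shares. The median difference of the panel was 0.00, against -0.15 in the 38 genes. Of 25 further general endothelial genes 2 rose, the adhesion receptor Adgrf5 (0.36) and the transcription factor Sox17 (0.56), and 1 fell, the TGF-beta co-receptor Eng (-0.47). Of 16 further arterial and Notch genes 2 fell, the VEGF and semaphorin co-receptor Nrp1 (-0.52) and the Notch feedback gene Nrarp (-0.52). Of 6 further venous genes 2 fell, the apelin receptor Aplnr (-1.15) and the adhesion gene Flrt2 (-0.54).

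The lymphatic growth factor Vegfc (-0.55) fell among 6 further lymphatic genes, where the next in size was Reln at 0.09 (SE 0.06). Of 7 cardiac capillary genes 2 rose, Rgcc (0.85), a cell cycle regulator of capillary endothelium, and Gpihbp1 (0.47), which anchors lipoprotein lipase on capillaries. Tcf15, the partner of MEOX2 in fatty acid transport, differed by -0.23 (SE 0.07) and did not pass, though its arrays did not overlap. Of the 7 capillary genes 6 were higher with digoxin, and Tcf15 was the 1 that was lower. The capillary mean was 0.14 ± 0.06 (SD, n = 5) with digoxin and -0.11 ± 0.08 (SD, n = 3) with vehicle, and its arrays did not overlap. The mean of the further venous genes was lower with digoxin, also without overlap, and the means of the other lists of the panel overlapped. Of 7 endocardial genes 0 passed in limma, and the largest differences were those of Cdh11 (-0.43, SE 0.15) and Npr3 (-0.41, SE 0.22). In both the set and the wider panel, genes that rose and genes that fell stood beside each other within general endothelium.

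**Figure D5:**
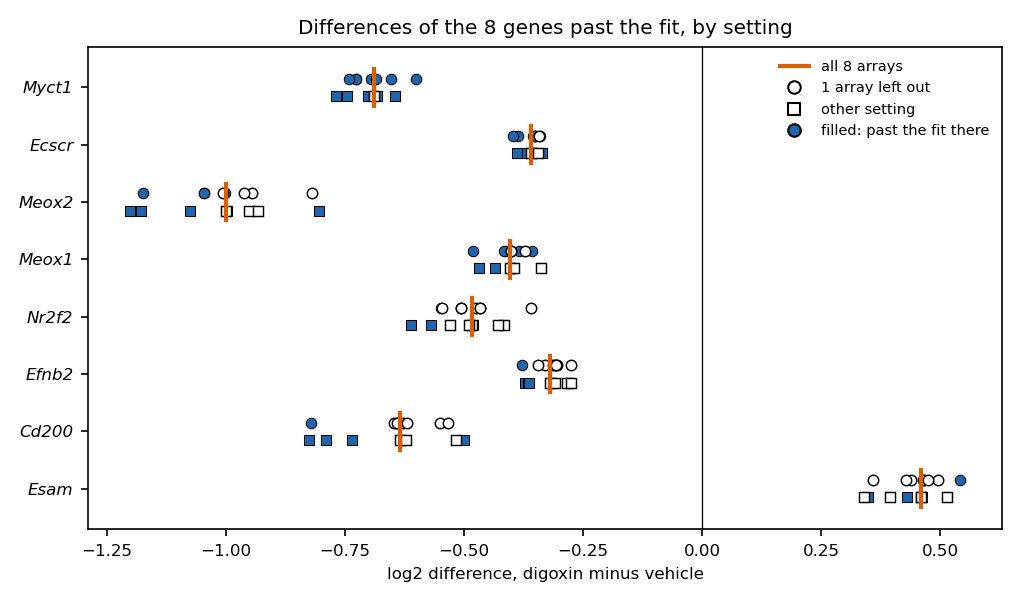
Digoxin minus vehicle difference in log2 expression of the 8 genes that passed, with a point for each way of processing or array left out and the value of the chosen processing marked. Filled points passed the fit under that processing, each gene keeps its sign throughout, and Meox2 and Cd200 vary most, from -1.20 to -0.80 and from -0.83 to -0.50.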

How the data were processed

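Total RNA of mouse heart was read on Affymetrix arrays (Mouse Gene 2.0 ST). Per the labels and the design text, the authors ran Robust Multi-array Average within a Galaxy suite. The log2 values they deposited are centred, probe set by probe set, on a constant that is not stated. Versions of those tools, the log base and the centring step were not found in the labels or the table, and the base was taken as that of the method. The submitters' processing notes name limma.

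Of 34351 probe sets, 23521 carried 1 gene symbol in the platform annotation and were averaged per gene (22180 genes, 21098 of them with 1 probe set). Of the rest, 1814 carried several symbols and 9016 none, and these were not used. Of the 38 members, 37 were read by 1 probe set. No filter on dim genes was possible. Digoxin (5 arrays) and vehicle (3 arrays) were compared by limma (version 3.58.1 under R 4.3.3), using lmFit and eBayes (two-sided, Benjamini-Hochberg adjustment across all genes, threshold 0.05, no covariate), which gave SE and 95% intervals on 6 residual plus 2.75 prior degrees of freedom. Class values are means over genes on each array.

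The members, the wider endothelial panel and the marker lists were chosen with earlier results of these data known. All 38 members are reported. Members past the fit, or with groups that do not overlap, are given by array. Panel genes are named when past the fit or among the 2 largest differences of their list, and Tcf15 and the gene pairs were chosen after their values were seen. Alternatives covered normalisation, covariates, a replicate block, arrays left out, array weights, the variance model, the threshold and the choice of probe set. The count for the wider panel was added to these after seeing the data. Samples with the same number did not deviate together (correlations of -0.20, -0.02 and 0.02), and no 2 arrays held identical values.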

Additional observations from a re-analysis of the deposited data

Results flagged for a closer look

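In 52 sets of 5 digoxin arrays, those of the 38 genes and of the list means, 5 held an array whose gap to the nearest other array was large beside the range of the group (Dixon's critical value 0.71). Chance gives about 1 in 20. Ecscr was -0.10 on digoxin replicate 2 and -0.25 to -0.22 on the other digoxin arrays. Plvap was 0.52 on digoxin replicate 4 and -0.02 to 0.09 on the others. Hey2 was 0.25 on digoxin replicate 5 and 0.00 to 0.05 on the others. Angpt1 was -0.47 on digoxin replicate 1 and -0.12 to 0.03 on the others. The mean of the lymphocyte and neutrophil markers was 0.90 on digoxin replicate 4 and -0.04 to 0.04 on the others, and Cd3e and Cd3g, which encode parts of the T cell receptor complex, were the genes of that list with the largest spread. Groups of 3 vehicle arrays are too small for this comparison.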

How the results depend on the processing

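Every one of the 8 genes past the fit kept its sign under the 18 alternatives of the fit, but the calls did not hold equally. Of the 18, Myct1 passed in 17, Ecscr in 15, Meox1 in 12, Meox2 in 11, Cd200 in 8, Efnb2 in 7, and Esam and Nr2f2 in 6 each. Of the other 30 genes, Hey1 passed in 3, Lyve1 in 2, and Dll4 and Plvap in 1 each. The genes past the fit numbered 302 over all genes, 8 in the set and 10 in the wider panel. With a trend and robust variance they were 127, 1 and 3, and with array weights 614 and 24 over all genes and in the panel. Without digoxin replicate 4 and vehicle replicate 3 they were 500 and 19, and at a threshold of 0.10 they were 493 and 16. With the atrial covariate 3 genes of the set passed. Leaving out each array in turn gave 166 (without digoxin replicate 5) to 374 (without vehicle replicate 3) over all genes, 2 to 8 in the set, with 2 without digoxin replicate 3 or vehicle replicate 2, and 7 to 18 in the panel, with 18 without vehicle replicate 3. These fits have fewer samples. All genes split into 210 higher and 92 lower, 294 and 320 with array weights, 218 and 282 when digoxin replicate 4 and vehicle replicate 3 were left out, and 185 and 189 without vehicle replicate 3. With the replicate number as a block, which the check of pairing does not back, 12 genes passed in all, 0 in the set and 1 in the panel. The class difference in general endothelium (-0.10) was -0.19 without digoxin replicate 4 and vehicle replicate 3, -0.17 with array weights, -0.04 with the atrial covariate and -0.04 with that of fibroblasts. The arterial and Notch difference (-0.14) was -0.22 as a median over genes, and leaving out each array gave -0.21 to -0.08. The lymphatic difference (0.12) was 0.07 as a median over genes and with array weights. The cause of these changes was not tested. Centred values give no signal over background.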
